A study of Mus musculus with 12 samples.

Results

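The 9 genes described here, Myo6, Myo10, Myo1c, Myo1e, Myo1h, Myo5a, Myo5b, Myo9a and Myo18a, encode unconventional myosins, and they were chosen by name and matched to the Ensembl identifiers of the count tables. They are 9 of the 55416 genes in the tables, and all 9 were among the 13269 genes that passed the filter on low counts and were tested. Another 16 unconventional myosin genes, including the deafness genes Myo7a, Myo15a and Myo3a, serve as the comparison within the family.

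Expression was measured by bulk RNA-seq in 6 libraries of inner hair cells (IHCs) and 6 libraries of outer hair cells (OHCs), sorted from the organ of Corti of mice at postnatal day 0 (P0). Each library was made from a pool of cells of multiple pups of both sexes. The labels give every library the genotype WT, while the sort relied on reporter alleles: IHCs were collected for Atoh1-GFP, a reporter of the transcription factor that specifies hair cells, and OHCs for GFP together with TdTomato, which a Cre recombinase expressed with GFP from the Insm1 gene switches on from R26-TdTomato. Other cells that carry GFP, or GFP with TdTomato, would pass the same gates.

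Unconventional myosins are motor proteins that bind actin and use ATP to pull along filaments or to hold cargo and membranes against them. The hair bundle and the cuticular plate of a hair cell are built of actin, and several members of the family are needed for them. Myo6 moves toward the minus end of actin filaments, opposite to the other myosins known, and its loss causes deafness in mice and people. Myo10 reaches the tips of filopodia, Myo5a and Myo5b carry vesicles and recycling endosomes, and class I myosins link actin to membranes. Myo9a carries a domain that switches off small GTPases, and Myo18a binds actin and the Golgi but is regarded as lacking motor activity.

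Gene counts per library ran from 31490204 to 44017309 in IHCs and from 29564827 to 39121988 in OHCs. Ribosomal RNA genes took 21.5% to 56.9% of these counts in IHC libraries and 23.4% to 36.4% in OHC libraries, and the IHC library with the highest share, IHC replicate 1, stood apart with a normalization factor of 0.486. Values below are in CPM, counts divided by a TMM-normalized library size and put on a common scale, given as mean ± SD over the 6 libraries of a cell type. The cell types carried their defining markers, since the summed CPM of Tbx2, Fgf8 and Slc17a8 was 331 to 585 in IHCs and 5.57 to 52.8 in OHCs. The sum of Insm1, Neurod6, Bcl11b and Ikzf2 was 2.16 to 23.5 CPM in IHCs and 105 to 188 CPM in OHCs. The 6 markers of hair cells in general, Atoh1, Pou4f3, Gfi1, Myo7a, Otof and Calb2, summed to 3157 to 6367 CPM in IHCs and 1661 to 2189 CPM in OHCs. All 6 had a negative log2 fold change of OHCs over IHCs, and Gfi1, Otof and Calb2 were IHC-enriched. Ikzf2, a regulator of OHC maturation, was the 1 marker of the IHC and OHC lists that was not called between the cell types.

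Each of the 9 genes lies on the forward strand of GRCm39 in the GENCODE vM39 annotation. Chromosome 9 holds 4 of them: Myo9a (chr9:59658133-59836149), Myo1e (chr9:70114632-70307048), Myo5a (chr9:74978297-75130970) and Myo6 (chr9:80072282-80219011). Chromosome 11 holds Myo1c (chr11:75541315-75565430) and Myo18a (chr11:77654062-77756815). Myo1h (chr5:114427227-114503418) and Myo10 (chr15:25622611-25813759) lie apart from these, as does Myo5b. Counts here are for whole genes, so transcripts of a gene are summed. This matters most for Myo10, where 7 of the 10 coding transcripts in vM39 start more than 100 kb downstream of the first, and the longest encodes 2062 codons. In other tissues the downstream start is known to yield a headless Myo10 that lacks the motor domain.

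The 250 bases before the start sites are shown for the gene that differed between the cell types, Myo10, at both of its RefSeq start sites, and for the gene with the highest level, Myo6. They are RefSeq sequences on GRCm38.p6, forward strand, and the capitals mark CpG dinucleotides. The first Myo10 window is chr15:25622300-25622549, the second is chr15:25752956-25753205, and the Myo6 window is chr9:80164784-80165033.
Myo10, first start: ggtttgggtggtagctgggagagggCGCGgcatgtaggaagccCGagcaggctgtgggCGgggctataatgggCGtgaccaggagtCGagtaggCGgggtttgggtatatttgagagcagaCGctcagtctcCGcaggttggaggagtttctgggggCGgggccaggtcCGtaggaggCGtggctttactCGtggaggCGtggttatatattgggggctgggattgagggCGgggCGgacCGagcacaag
Myo10, second start: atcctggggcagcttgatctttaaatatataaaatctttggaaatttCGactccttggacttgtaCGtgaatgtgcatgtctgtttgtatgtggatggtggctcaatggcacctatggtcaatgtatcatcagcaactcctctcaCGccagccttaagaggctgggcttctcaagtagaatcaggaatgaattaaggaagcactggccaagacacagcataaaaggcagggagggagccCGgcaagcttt
Myo6: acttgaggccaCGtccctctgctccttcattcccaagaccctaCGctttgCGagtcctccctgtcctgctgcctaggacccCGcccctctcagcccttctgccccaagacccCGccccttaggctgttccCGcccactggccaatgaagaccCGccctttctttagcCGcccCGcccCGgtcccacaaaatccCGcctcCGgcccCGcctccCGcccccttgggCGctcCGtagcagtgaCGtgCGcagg

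The first Myo10 window held 17 CpG dinucleotides at a GC content of 62.8%, and the Myo6 window held 18 at 67.6%. The second Myo10 window, 130656 bases downstream of the first, held 4 CpG dinucleotides at a GC content of 46.0%. The medians over all 32851 RefSeq windows of this length were 6 CpG dinucleotides and 52.4%, so the upstream Myo10 start and the Myo6 start lay above them and the downstream Myo10 start lay below. The letters of the E-box, CANNTG, and the T-box motif GGTGTGA, searched on both strands, occur in 66.2% and 3.33% of all windows and in none of these 3. RefSeq windows were read for 8 of the 9 genes. The selection of windows for the 9 genes left out chromosome 18, where Myo5b lies, so none was read for Myo5b.

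The comparison between IHCs and OHCs asks which of these motors differ between the cell types at P0. Of the 9 genes 1 was called, where 6.26% of all genes tested were. That gene was IHC-enriched, where 3.81% of all genes tested were, and 0 were OHC-enriched, where 2.44% of all genes tested were. By edgeR without adjustment, 2 of the 9 had a p under 0.05, Myo10 and Myo6, against 21.8% of all genes tested. With DESeq2 1 gene of the 9, Myo6, was OHC-enriched. DESeq2 called 1590 genes OHC-enriched in all, where edgeR called 324. The log2 fold change of OHCs over IHCs was negative, that is higher in IHCs, for 4 of the 9 genes and positive for 5. Its median was 0.35, beside -0.04 over all genes tested. In bulk libraries, fewer cells that express a gene and less RNA of it per cell cannot be told apart.

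**Figure D1:**
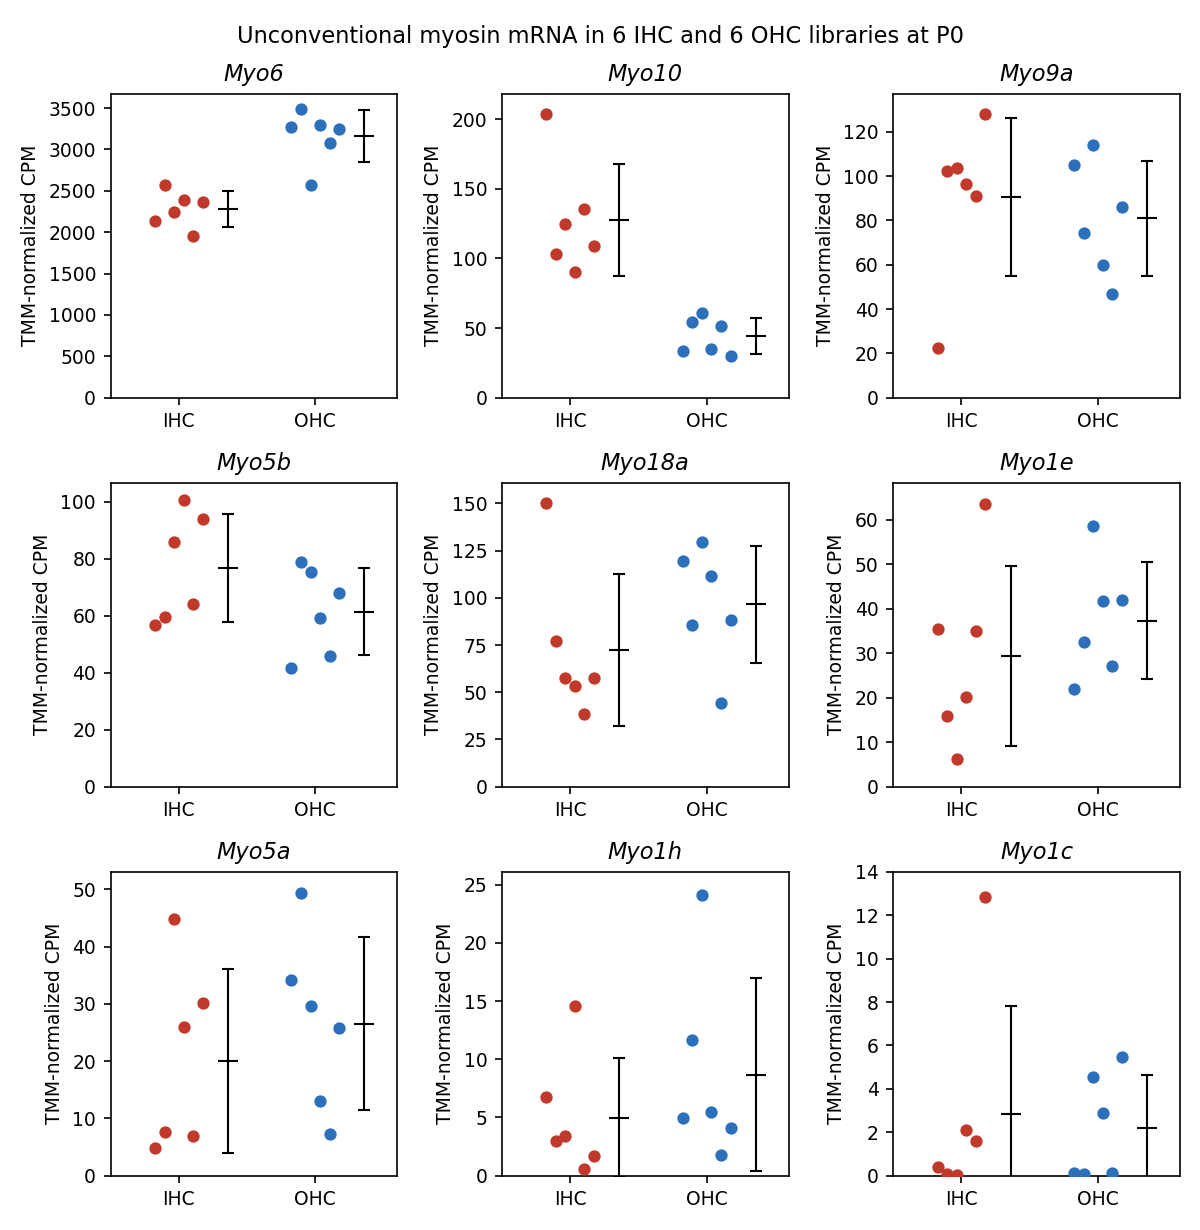
Expression of the 9 unconventional myosin genes in each library (points; red, 6 IHC pools; blue, 6 OHC pools), in TMM-normalized CPM on linear axes that start at 0, with the mean and SD of each cell type beside the points; SD bars that would run below 0 are cut at the axis. Myo10 is the gene whose 6 IHC libraries (90.4 to 203 CPM) all lie above its 6 OHC libraries (29.9 to 60.8 CPM), and the Myo6 points touch, at 2576 CPM in the highest IHC library and 2575 CPM in the lowest OHC library.

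Myo10, the motor of filopodia, was the IHC-enriched member. In IHC libraries its level ran from 90.4 through a median of 117 to 203 CPM, and in OHC libraries from 29.9 through 43.3 to 60.8 CPM. Every IHC library lay above every OHC library, as in 2.37% of the genes tested, and none of the 9 genes had every OHC library above every IHC library, as 2.22% of the genes tested did. The means, 128 ± 40.3 and 44.1 ± 12.9 CPM, were 2.89-fold apart. The log2 fold change was -1.53 (SE 0.27, 95% interval -2.09 to -0.97, adjusted p = 0.00136). The highest value came from IHC replicate 1, and without that library the log2 fold change was -1.36 (adjusted p = 0.00216). Raw counts on Myo10 were 3109 to 4754 in IHC libraries and 1211 to 2242 in OHC libraries, so counting error was small beside the spread between pools.

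Markers of hair cells in general, given above, were higher in the IHC pools, as Myo10 was, and their part in its difference was not tested. Markers of other cell types were also read beside Myo10. The 5 markers of the greater epithelial ridge, the epithelium next to the IHCs, summed to 643 to 1392 CPM in IHCs and 89.2 to 531 CPM in OHCs. Of that list 4 were tested and 2, Tecta and Otog, were IHC-enriched, while Epyc had 3 counts or fewer in every IHC library. The 6 genes listed for spiral ganglion neurons summed to 1179 to 2155 CPM in IHCs and 345 to 614 CPM in OHCs. The 3 of them that were tested, Nefl, Nefm and Gata3, were IHC-enriched, whereas Tubb3 and Nefh, among the others, were too low to be tested. Mesenchyme markers summed to 16.2 to 38.5 CPM in IHCs and 3.32 to 27.2 CPM in OHCs, with 0 of 5 tested markers called and 1 with an unadjusted p under 0.05 in edgeR. Supporting cell markers summed to 112 to 302 CPM in IHCs and 269 to 433 CPM in OHCs, with Sox2 IHC-enriched and Prox1 OHC-enriched. The higher OHC sum rested on Prox1, whose mean rose from 28.6 to 217 CPM, and Fgfr3, from 16.8 to 73.1 CPM. Of the 7 markers, 4 (Sox2, Fabp7, Sparcl1 and Lfng) had a negative log2 fold change, and that of S100b was 0.04. The paper describes Prox1 as expressed in developing OHCs too, so these sums do not show which pools held more supporting cells. Glial markers, led by Sox10, summed to 8.57 to 62.4 CPM in IHCs and 2.71 to 21.6 CPM in OHCs, macrophage markers summed to at most 19.6 CPM in a library, and the erythroid markers were too low to be tested. The part of any of these cells in the Myo10 difference was not tested.

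The tested genes whose profile over the 12 libraries was most like that of Myo10 were Trib2 and Gata3. Likeness was the mean absolute difference in log2 CPM after each gene was centred on its own mean, and it was 0.185 for Trib2 and 0.195 for Gata3, against a median of 1.09 over all genes. Trib2, a pseudokinase, fell from 115 ± 36.7 CPM in IHCs to 43.7 ± 12.2 CPM in OHCs (log2 fold change -1.39, adjusted p = 0.00315). Gata3, a transcription factor of the inner ear that is also on the list for spiral ganglion neurons, fell from 437 ± 142 CPM to 154 ± 28.4 CPM (log2 fold change -1.50, adjusted p = 3.55e-04).

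Myo6, the minus-end motor, had the highest level per kb of exon of the family in both cell types. In IHCs it ran from 1954 through a median of 2307 to 2576 CPM, and in OHCs from 2575 through 3263 to 3492 CPM. The groups touched at 1 pair of libraries: 5 of the 6 OHC libraries lay above every IHC library, and OHC replicate 3 lay level with IHC replicate 2. The means, 2277 ± 217 and 3162 ± 316 CPM, were 1.39-fold apart. Myo6 did not pass the threshold, with a log2 fold change of 0.47 (SE 0.15, 95% interval 0.16 to 0.79, adjusted p = 0.0650). Without IHC replicate 1 the log2 fold change was 0.45 and the adjusted p was 0.0419, and with DESeq2 it was 0.47 with an adjusted p of 6.67e-04, so the call depends on that library and on the tool. An annotated antisense transcript, Gm27227, shares 72 bases with the exons of Myo6, which is 0.575% of them.

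Markers of endothelium were higher in OHC pools and are read beside any value higher there. The 5 markers summed to 0.196 to 4.96 CPM in IHCs and 10.5 to 160 CPM in OHCs, 4 of the 5 were OHC-enriched, and Cldn5 had no count in any IHC library. Their part in the Myo6 values was not tested.

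Levels of different genes can be compared per kilobase of annotated exon. In IHCs the order of CPM per kb was Myo6 at 182 ± 17.3, Myo10 at 12.6 ± 3.98, Myo9a at 6.46 ± 2.54, Myo5b at 6.02 ± 1.49, Myo18a at 4.42 ± 2.45, Myo1e at 4.42 ± 3.05, Myo5a at 1.33 ± 1.07, Myo1h at 0.839 ± 0.866 and Myo1c at 0.320 ± 0.561. Myo6 stood 14.4-fold above Myo10, with no overlap between libraries, and every other pair of neighbours in the order overlapped. In OHCs the order was Myo6 at 253 ± 25.3, Myo18a at 5.90 ± 1.88, Myo9a at 5.77 ± 1.84, Myo1e at 5.62 ± 1.97, Myo5b at 4.81 ± 1.2, Myo10 at 4.36 ± 1.27, Myo5a at 1.76 ± 1.0, Myo1h at 1.47 ± 1.39 and Myo1c at 0.248 ± 0.274. There Myo6 stood 42.9-fold above the next gene, Myo18a, and the other neighbours overlapped again. Myo10 held rank 2 of 9 in IHCs and rank 6 of 9 in OHCs.

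As a share of the summed level per kb of the 9 genes, Myo6 made up 83.3% ± 2.55 in IHCs and 89.3% ± 3.43 in OHCs. Myo10 made up 5.86% ± 2.08 in IHCs and 1.57% ± 0.543 in OHCs. Against all 25 unconventional myosins, Myo6 made up 50.8% ± 5.35 in IHCs and 60.6% ± 2.57 in OHCs, and Myo7a, the motor of tip-link tension that marks hair cells, came next with 18.6% ± 4.85 and 11.5% ± 0.572.

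**Figure D2:**
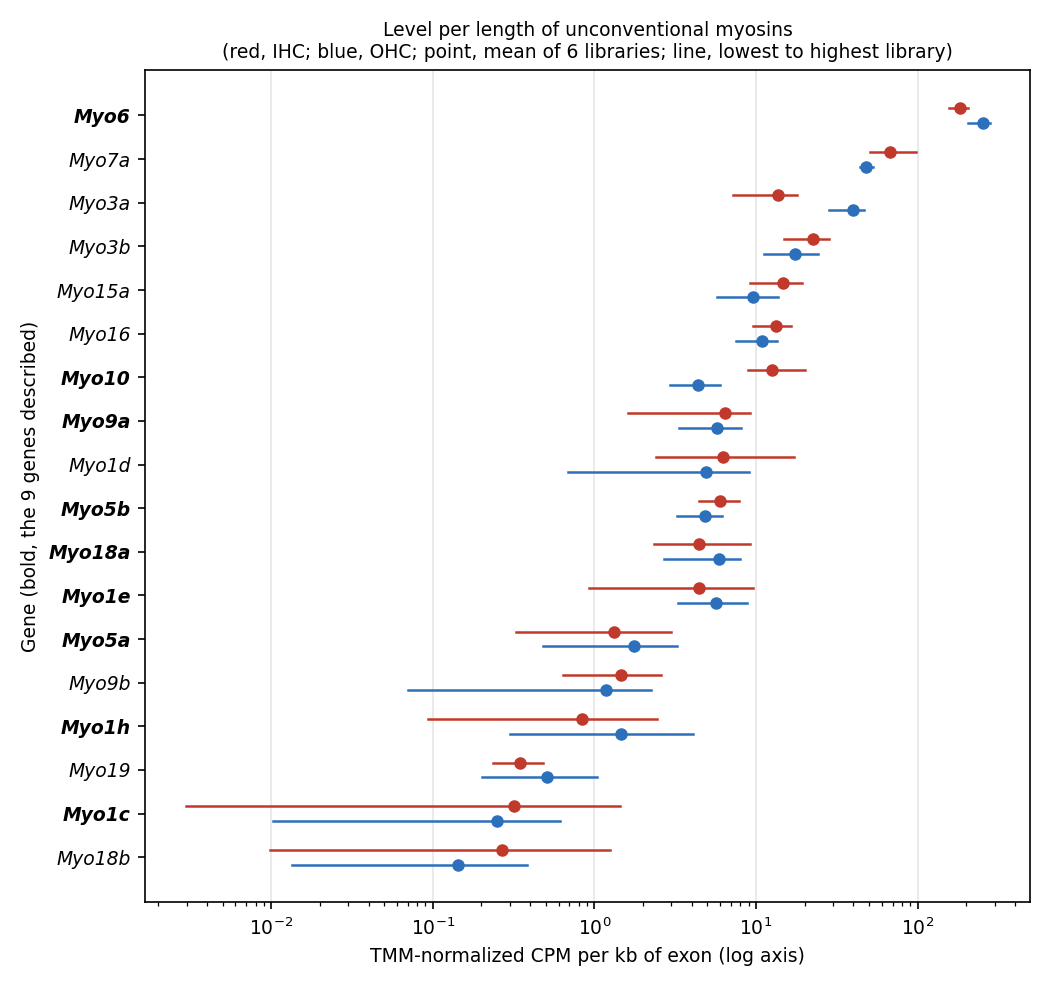
Level per length of unconventional myosins that were tested, in TMM-normalized CPM per kb of exon on a log axis (red, IHC; blue, OHC; point, mean of 6 libraries; line, lowest to highest library), ordered by level, with the 9 genes described here in bold. Myo6 lies at the top in both cell types at 182 and 253 CPM per kb, and the lines of Myo1c are among the widest.

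The members also differed in how steady they were between pools of 1 cell type. The coefficient of variation of Myo6 was 9.51% in IHCs, where 0.173% of the genes tested varied less, and 0.852% of them varied less in OHCs. The medians over all genes tested were 62.8% in IHCs and 51.3% in OHCs. Myo5b varied by 24.7% and 25%, and Myo10 by 31.6% and 29.2%. At the other end, Myo1c varied by 175% in IHCs and 110% in OHCs, and Myo1h by 103% and 95.1%. These comparisons were not matched for level. Raw counts per library were 32661 to 151903 for Myo6, 1 to 472 for Myo1c and 18 to 890 for Myo1h.

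The class V motors Myo5a and Myo5b carry vesicles, Myo5a best known from melanosomes and Myo5b from Rab11 recycling endosomes. Myo5b ran from 56.8 through 74.9 to 101 CPM in IHCs and from 41.5 through 63.6 to 78.8 CPM in OHCs. The groups overlapped, with 3 IHC libraries above every OHC library and 2 OHC libraries below every IHC library, and the log2 fold change was -0.32 (95% interval -0.86 to 0.22, adjusted p = 0.50). Myo5a ran from 4.91 through 16.8 to 44.8 CPM in IHCs and from 7.24 through 27.7 to 49.3 CPM in OHCs. In IHCs 3 libraries lay below 8 CPM and 3 above 25 CPM, and the log2 fold change of 0.40 did not pass the threshold (95% interval -0.77 to 1.58, adjusted p = 0.720). It was 0.13 without OHC replicate 2 and 0.81 without IHC replicate 3. The log2 ratio of Myo5b to Myo5a counts within a library was 2.37 ± 1.01 in IHCs and 1.42 ± 0.890 in OHCs, and the difference of -0.95 was within the spread (exact two-sided permutation test over libraries, p = 0.117, adjusted p = 0.351 over 3 ratios, with 0.00216 the smallest p that 6 against 6 allows).

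Among the class I myosins, Myo1c is the motor proposed to set adaptation of the transduction channel, Myo1e acts in endocytosis and at junctions, and Myo1h is little studied. Myo1e ran from 6.18 through 27.5 to 63.5 CPM in IHCs and from 21.9 through 37.1 to 58.5 CPM in OHCs, so that the range of OHCs lay inside that of IHCs. Its means were 29.3 ± 20.2 and 37.3 ± 13.1 CPM, and the log2 fold change was 0.35 (95% interval -0.59 to 1.28, adjusted p = 0.696), with 0.12 without IHC replicate 3 and 0.72 without IHC replicate 6. Myo1h ran from 0.551 through 3.18 to 14.5 CPM in IHCs and from 1.77 through 5.24 to 24.2 CPM in OHCs, with overlapping groups (log2 fold change 0.80, 95% interval -0.89 to 2.50, adjusted p = 0.605). Without OHC replicate 3 the log2 fold change of Myo1h was 0.16, and without IHC replicate 4 it was 1.5, neither past the threshold. The value of Myo1h is uncertain, since 1530 bases or 25.8% of its exons lie antisense to Kctd10, a gene with up to 1776 counts in a library, and the strand setting of the counting is not given in the sources used here.

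Myo1c was present or nearly absent from 1 pool to the next. It had 1 to 6 counts in 6 of the 12 libraries and 52 to 472 counts in the other 6, with 3 libraries of each kind in each cell type. In CPM it ran from 0.0262 through 0.993 to 12.9 in IHCs and from 0.0915 through 1.52 to 5.46 in OHCs. The log2 fold change was -0.37 with a 95% interval of -3.06 to 2.32 (adjusted p = 0.90), and without IHC replicate 6 it turned to 1.39 (adjusted p = 0.571), so no direction can be given. The log2 ratio of Myo1e to Myo1c was 5.20 ± 2.19 in IHCs and 5.62 ± 2.37 in OHCs (exact permutation test, p = 0.697, adjusted p = 0.697). That of Myo1h to Myo1c was 2.31 ± 3.75 and 3.11 ± 2.71 (exact permutation test, p = 0.693, adjusted p = 0.697). Both differences turned negative without IHC replicate 6, at -0.15 and -0.26, and the first also without OHC replicate 2, at -0.10.

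Myo9a, which pairs a motor with a domain that acts on small GTPases, ran from 22.6 through 99.5 to 128 CPM in IHCs and from 46.7 through 80.1 to 114 CPM in OHCs. The groups overlapped, and the log2 fold change was -0.17 (95% interval -0.85 to 0.52, adjusted p = 0.812). Myo18a, the Golgi-bound member, ran from 38.3 through 57.6 to 150 CPM in IHCs and from 44.4 through 99.9 to 130 CPM in OHCs. Its IHC range enclosed the OHC range only with IHC replicate 1 included, and the log2 fold change was 0.42 (95% interval -0.26 to 1.09, adjusted p = 0.486). Without that library it was 0.76 (adjusted p = 0.113) for Myo18a and -0.38 (adjusted p = 0.415) for Myo9a.

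**Figure D3:**
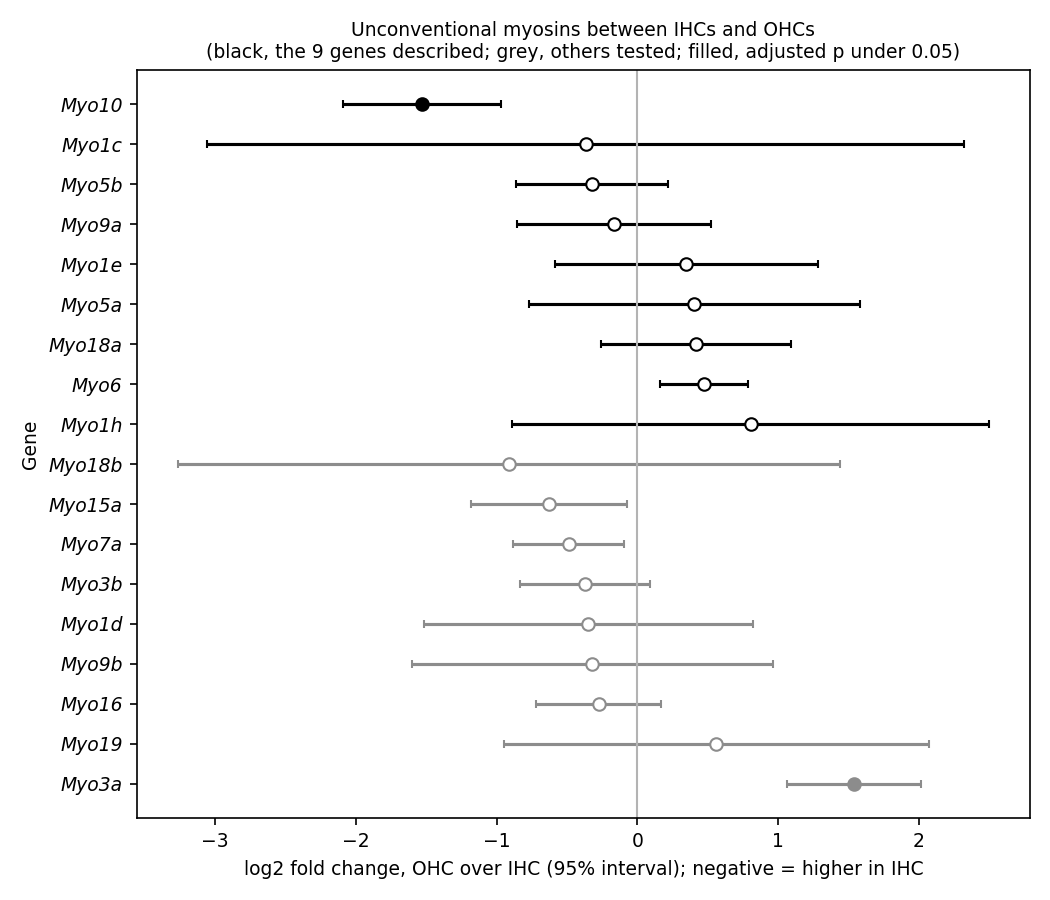
Log2 fold change of OHCs over IHCs with its 95% interval from edgeR for the 9 genes (black) and for other unconventional myosins tested (grey); filled points passed an adjusted p of 0.05, and points left of 0 are higher in IHCs. Myo10 at -1.53 is the filled point among the 9, Myo3a at 1.54 is the filled point among the rest, and the interval of Myo1c spans -3.06 to 2.32.

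Of the 16 remaining unconventional myosins, 10 were tested, 0 were IHC-enriched and 2 were OHC-enriched, by edgeR and by DESeq2 alike, and 4 had an unadjusted p under 0.05 in edgeR. Over all genes tested, edgeR called 3.81% IHC-enriched and 2.44% OHC-enriched, and 21.8% had an unadjusted p under 0.05. Among the 10 the fold change was negative for 7 and positive for 3, with a median of -0.33. Myo1a, Myo1f, Myo1g, Myo5c, Myo7b and Myo15b were too low to be tested. Myo3a, a kinase-bearing motor of stereocilia tips, ran from 57.6 through 109 to 143 CPM in IHCs and from 225 through 344 to 369 CPM in OHCs, without overlap. The log2 fold change of Myo3a was 1.54 (SE 0.23, adjusted p = 3.05e-04). The number called OHC-enriched was 1 without OHC replicate 3 or 4. Endothelial markers, given beside Myo6, were higher in the same pools, and their part in these values was not tested. Myo7a (log2 fold change -0.49, adjusted p = 0.131) and Myo15a, which delivers cargo to stereocilia tips (log2 fold change -0.63, adjusted p = 0.168), were not called.

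The 3 heavy chains of nonmuscle myosin II, Myh9, Myh10 and Myh14, were all tested, none was called by edgeR and 0 had an unadjusted p under 0.05. DESeq2 also called 0 of them, and their log2 fold changes were -0.40, 0.46 and 0.39.

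Unconventional myosins carry calmodulin or related light chains on their necks, and Unc45a is a chaperone that folds myosin heads. All 9 genes of this list were tested, and 8 had a negative fold change, with a median of -0.38. Calm2, which encodes calmodulin, was the IHC-enriched one of the 9, where 3.81% of all genes tested were. It ran from 1181 through 1793 to 2721 CPM in IHCs and from 658 through 843 to 1033 CPM in OHCs, without overlap, and its log2 fold change was -1.11 (SE 0.20, adjusted p = 0.00139). Calm3 did not pass the threshold (log2 fold change -0.60, adjusted p = 0.217). General hair cell, greater epithelial ridge and spiral ganglion neuron markers were higher in the same pools, as given above, and their part was not tested.

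Cargo adaptors and partners were listed for Myo6, Myo5a and Myo5b, Myo10, Myo18a, Myo9a, Myo1c and Myo1e. Of 37 genes 32 were tested, and the fold change was negative for 16 and positive for 16. By edgeR 3 were IHC-enriched and 0 were OHC-enriched, beside 3.81% and 2.44% of all genes tested. An unadjusted p under 0.05 in edgeR was found for 11 of the 32, beside 21.8% of all genes tested. DESeq2, which sets its own filter, called 7, of which 5 were IHC-enriched and 2, Rab11a and Dab2, were OHC-enriched. Over all genes DESeq2 called 1339 IHC-enriched and 1590 OHC-enriched. The 3 genes called by edgeR belonged to the lists for Myo6, for Myo5a and Myo5b, and for Myo18a.

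Of the 8 Myo6 adaptors 6 were tested, and 1, Gipc3, was called. Gipc3 is a deafness gene whose product binds the Myo6 tail. It ran from 449 through 637 to 1345 CPM in IHCs and from 277 through 308 to 363 CPM in OHCs, without overlap, and its log2 fold change was -1.19 (SE 0.25, adjusted p = 0.00550). Thus Gipc3 was lower in OHCs while Myo6 itself had a positive fold change that missed the threshold. Its relative Gipc1 had a log2 fold change of -0.78 (adjusted p = 0.250), and the endosomal adaptors Tom1 and Tom1l2 had -0.23 and -0.32 (adjusted p = 0.799 and 0.457). The adaptors Dab2 and Optn were too low to be tested.

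Of the 11 partners of Myo5a and Myo5b 9 were tested, and 1, Rab11fip1, was called. Rab11fip1, which ties Rab11 endosomes to Myo5b, was 748 ± 87.9 CPM in IHCs and 494 ± 71.6 CPM in OHCs, without overlap between 644 to 865 and 406 to 579 CPM (log2 fold change -0.60, SE 0.17, adjusted p = 0.0370). The call was lost without IHC replicate 3 or 5 or without OHC replicate 1, 3, 4, 5 or 6, each left out alone, with adjusted p from 0.0511 to 0.0964. The GTPase Rab11a had a log2 fold change of the opposite sign, 0.94, just outside the threshold (adjusted p = 0.0539). Spire1, an actin nucleator that binds class V tails, ran from 174 to 266 CPM in IHCs and from 112 to 159 CPM in OHCs without overlap. It was not called by edgeR (log2 fold change -0.61, adjusted p = 0.0623) but was among the genes called by DESeq2. Rab27a and Mlph, which tie Myo5a to melanosomes, were too low to be tested.

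Of the 7 partners of Myo18a, all tested, 1 was called. Arhgef7, an exchange factor for Rac and Cdc42, fell from 122 ± 28.6 CPM in IHCs to 58.1 ± 23.9 CPM in OHCs (log2 fold change -1.07, SE 0.28, adjusted p = 0.0245), with overlapping libraries. Its adjusted p was 0.0604 without OHC replicate 3 and 0.0624 without OHC replicate 6. Golph3, which links Myo18a to the Golgi, had a log2 fold change of 0.19 (adjusted p = 0.675).

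Of the 6 partners of Myo10 5 were tested and none was called by edgeR, with 1, Vasp, at an unadjusted p under 0.05 and also called by DESeq2, and with log2 fold changes from -1.23 to 0.48. The lowest was that of Vasp, a filopodial actin elongation factor (18.5 ± 12.1 and 7.90 ± 3.66 CPM, adjusted p = 0.193), and its relatives Enah and Evl had 0.28 and 0.31 (adjusted p = 0.467 and 0.331). The value of Vasp is uncertain, since 1195 bases or 20.2% of its exons lie antisense to Opa3. Opa3 had up to 2760 counts in a library, and the strand setting of the counting is not given. The netrin receptor Neo1, a cargo of Myo10, had 279 ± 57.4 CPM in IHCs beside 278 ± 54.4 CPM in OHCs, and the receptor Dcc was too low to be tested. The partners of Myo1c (Rala and Exoc3), Myo1e (Synj1 and Dnm2) and Myo9a (Rhoa) were tested, and none of these 5 was called by edgeR or DESeq2, with 1, Synj1, at an unadjusted p under 0.05 in edgeR, and with log2 fold changes from -0.64 for Synj1 to 0.80 for Rala.

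**Figure D4:**
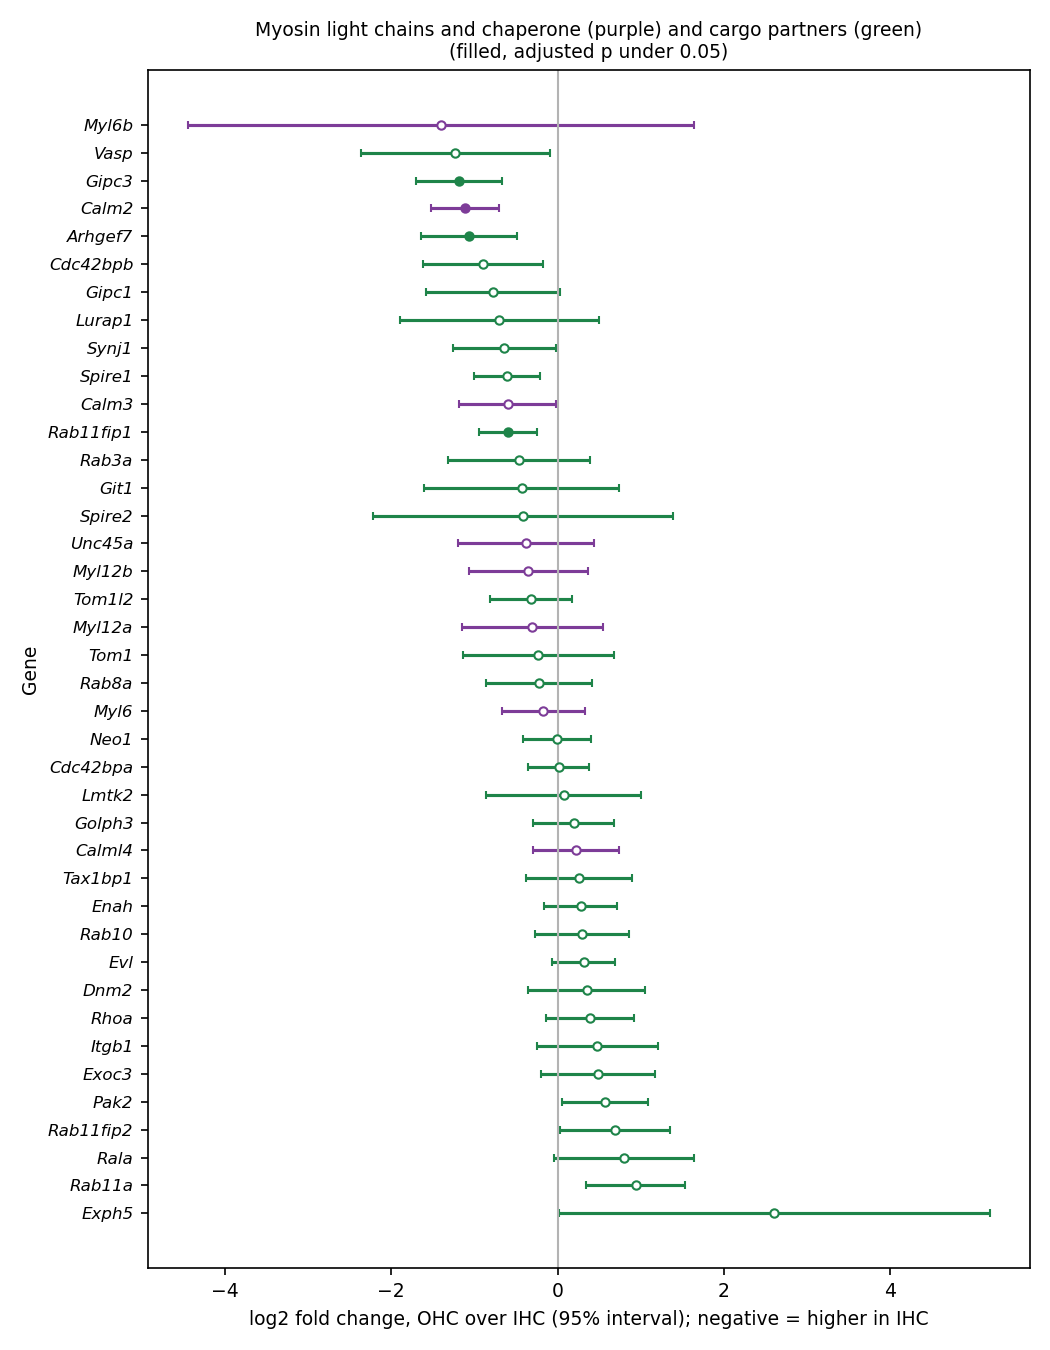
Log2 fold change of OHCs over IHCs with its 95% interval from edgeR for light chain and chaperone genes (purple) and the 32 cargo partners tested (green); filled points passed an adjusted p of 0.05. The 4 filled points, Gipc3 at -1.19, Calm2 at -1.11, Arhgef7 at -1.07 and Rab11fip1 at -0.60, all lie left of 0, on the side higher in IHCs.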

How the data were processed

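For each of the 12 libraries the authors deposited raw, unnormalized read counts. By the labels and the study's methods, libraries were amplified from RNA depleted of ribosomal RNA, with random hexamers as primers, and 100 bp paired-end reads were trimmed with Trimmomatic, aligned to GRCm39 with STAR and counted with HTSeq in intersection-nonempty mode against GENCODE vM27. Tool versions and the strand setting are not given in the sources used here.

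Libraries were grouped by the cell type in the labels, and by the study each replicate is a pool from multiple mice. The summary lines of HTSeq, 24.2% to 43.4% of all lines in IHC and 28.9% to 46.1% in OHC libraries, were left out. Genes were filtered with filterByExpr (minimum count 10, minimum total count 15), normalized by TMM and tested with edgeR's quasi-likelihood test (edgeR 4.0.16, limma 3.58.1, R 4.3.3) with Benjamini-Hochberg adjustment over all 13269 genes and a threshold of 0.05. DESeq2 1.42.0, other filters, scalings, a replicate block and leaving out each library were alternatives. The code was tested on simulated data. Ratios of paralogs were compared with exact permutation tests (pseudocount 0.5; Python 3.11.15, numpy 2.4.6, pandas 2.3.3, scipy 1.17.1). Levels per kb used the exons of GENCODE vM39, whose identifiers matched 98.8% of the genes and 99.97% of the counts. Amplified copies cannot be told from separate molecules, so precision is read from the spread between pools.

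The 9 genes and the other lists were chosen with earlier results of these data known. All 9 are named, as are genes called from the other lists and, for each called member, the 2 genes of most similar profile (log2 CPM, prior count 2). Other genes of the lists named with values, such as Rab11a, Spire1 and Vasp, were chosen after their values were seen. A few genes of the lists are counted but not reported here.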

Additional observations from a re-analysis of the deposited data

Results flagged for a closer look

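Within each cell type, the highest and lowest library of each of the 9 genes was compared with the rest by Dixon's ratio of gap to range at its 95% critical value, which flags about 1 in 20 groups by chance. Of 18 groups tested, 3 held a library far from the others, all among IHCs. Myo1c was at 12.9 CPM in IHC replicate 6, where the next library was at 2.12 CPM. Myo9a was at 22.6 CPM in IHC replicate 1, where the next was at 91.0 CPM, and Myo18a was at 150 CPM in the same library, where the next was at 77.0 CPM.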

How the results depend on the processing

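Myo10 stayed IHC-enriched under all 18 alternatives (log2 fold change -1.66 to -1.36, adjusted p 5.76e-06 to 0.00590). Of all genes tested, 506 were IHC-enriched and 324 OHC-enriched; DESeq2 gave 1339 and 1590, no filter on low counts gave 893 and 918, the edgeR exact test gave 517 OHC-enriched, and leaving out 1 library gave 369 to 551 and 225 to 402. The number of the 9 genes called OHC-enriched was 1 with DESeq2 and 0 to 1 when 1 library was left out, through Myo6, at 0.47 (adjusted p = 6.67e-04) with DESeq2 and 0.42 to 0.52 without 1 library. Myo1c turned from -0.37 to 1.39 without IHC replicate 6 (range -0.87 to 1.39 over libraries left out), and it could not be tested when 10 counts were required in every library. The log2 ratio difference of Myo1e to Myo1c ran from -0.15 to 0.96 without 1 library, negative without IHC replicate 6 (-0.15) or OHC replicate 2 (-0.10), and that of Myo1h to Myo1c from -0.26 to 1.62. The count of called genes among the remaining unconventional myosins, 2, was 1 under the filter of 10 counts in every library and 1 to 2 without 1 library. The count of called partners, 3, was 7 with DESeq2 and 1 to 5 without 1 library, 5 without IHC replicate 1 or 2 and 1 without OHC replicate 3 or 6. With the replicate number as a block, 512 genes were IHC-enriched and 391 OHC-enriched. Myo10 was then at -1.53 (adjusted p = 0.00250) and Myo6 at 0.47 (adjusted p = 0.137). The remaining unconventional myosins had 1 call, and the call of Rab11fip1 (adjusted p = 0.0731) was lost. The cause of these changes was not tested. Same-numbered libraries did not deviate together (r from -0.031 to 0.018), and no IHC library correlated best with the OHC library of its own number. The labels give only a replicate number, and such correlations cannot show whether same-numbered pools came from the same pups.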
